A study of Mus musculus with 9 samples.

Results

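Liver expression of 7 genes of the glucocorticoid and metal responses was compared across 3 mouse models: the glucocorticoid receptor Nr3c1, its regulator Fkbp5, the glucocorticoid-responsive genes Tsc22d3, Sgk1 and Tat, and the metallothioneins Mt1 and Mt2. They were taken as all array probe sets whose only gene symbol is one of these names, which gave 13 probe sets of 22626, for 7 genes of 12393. The members were chosen from the Tsc22d3 signals, which moved in opposite directions in the models relative to the control, so the Tsc22d3 values are given as a description and without a test. All mice were males aged 2 months, of mixed C57BL/6 and 129/Sv strain. Cpr stands for NADPH-cytochrome P450 reductase, which supplies microsomal P450 enzymes with electrons. Cpr-lox mice served as the control, liver-Cpr-null mice are named for the missing hepatic Cpr, and Cpr-low mice for a reduced amount. The labels do not state how the alleles were made, which promoter drives any recombinase, or how much Cpr remained, and the transcript of Cpr itself was not analysed here. Each model contributed 8 or 9 mice, whose RNA made 3 pools, with 1 Affymetrix MOE430A array for every pool and 9 in all.

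Glucocorticoids are adrenal steroids that enter cells and bind the receptor encoded by Nr3c1, which is held ready by a chaperone complex, moves to the nucleus and changes the transcription of many genes. In the liver these include enzymes of amino acid breakdown and glucose production, such as tyrosine aminotransferase, and genes that dampen the hormone's own signal, such as Fkbp5. Metallothioneins are small cysteine-rich proteins that bind zinc and copper, and their genes respond to metals through the factor encoded by Mtf1 and also to glucocorticoids, inflammation and oxidative stress.

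Promoter sequences are shown for Mt1, Mt2 and Sgk1, whose windows hold the letters of several metal response elements or of a full glucocorticoid response element, because these elements are the textbook link between the members. The windows run from 250 bases before to 50 bases after an annotated start and come from RefSeq on GRCm38.p6, in which all 7 genes were matched; the receptor's own window is not shown. The metal response element core was searched as TGCACNC or TGCGCNC on both strands, and 25.7% of 32851 windows of the same length hold it at least once. The Mt1 window, at chr8:94178839-94179138 on the plus strand, holds 3 matches, and the Mt2 window, at chr8:94172368-94172667 on the plus strand, holds 4, none of which overlap. Capitals mark these matches in the following lines, which run 5′ to 3′.
Mt1: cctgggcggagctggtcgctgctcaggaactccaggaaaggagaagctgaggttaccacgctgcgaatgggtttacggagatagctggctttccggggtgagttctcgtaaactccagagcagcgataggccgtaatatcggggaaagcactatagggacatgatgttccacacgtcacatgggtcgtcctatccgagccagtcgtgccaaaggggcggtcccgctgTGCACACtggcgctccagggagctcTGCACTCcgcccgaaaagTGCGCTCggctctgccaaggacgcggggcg
Mt2: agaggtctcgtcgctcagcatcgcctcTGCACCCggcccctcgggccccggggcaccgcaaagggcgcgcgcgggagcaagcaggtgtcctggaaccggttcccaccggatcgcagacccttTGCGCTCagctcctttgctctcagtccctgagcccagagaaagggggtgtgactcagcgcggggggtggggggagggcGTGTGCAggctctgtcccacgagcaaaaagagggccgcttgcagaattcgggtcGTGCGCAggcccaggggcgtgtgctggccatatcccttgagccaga
The Mt2 window also holds 1 antioxidant response element core, searched as TGACNNNGC on both strands and left in lower case above, which 12.4% of windows hold. A full palindromic glucocorticoid response element was searched as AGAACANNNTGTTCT, which reads the same on both strands and is present in 3 of 32851 windows (0.00913%). One of these 3 is 1 of the 6 Sgk1 windows, with the match from 189 to 175 bases before that start. The stretch around it, at chr10:21993656-21993760 on the plus strand, is given with the match in capitals.
Sgk1: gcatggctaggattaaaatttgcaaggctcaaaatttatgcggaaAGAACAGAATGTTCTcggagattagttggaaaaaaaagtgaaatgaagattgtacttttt
The 3 Tsc22d3 windows and the single windows of Fkbp5, Tat, Mt1 and Mt2 hold no such match. The half-site AGAACA, which lies inside the full element and was found on either strand in 19% of windows, occurs in 3 of the 6 Sgk1 windows, 1 time in 1 of the 3 Tsc22d3 windows and not in those of Fkbp5, Tat, Mt1 or Mt2. The metal response element core also occurs 1 time in 1 other Sgk1 window, on the minus strand. A match is a run of letters and not a measured site, and these windows leave out distant elements.

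The authors deposited 1 linear signal intensity per probe set and array, and array medians lay between 171 and 179. Signals below were scaled to a common 2% trimmed mean and are given as means ± SD over n = 3 pools. Differences are log2 fold changes ± SE of signal + 16, an added constant that makes changes of dim probe sets look smaller, and a probe set was called at a Benjamini-Hochberg adjusted p under 0.05 in a limma fit of all 9 arrays. Of the 13 probe sets 12 were bright enough for the fit, and the other, a dim Nr3c1 probe set, was not tested. No label says if any mouse was in more than 1 pool, so the p-values reflect only pool-to-pool spread, which may be technical. The run settings stamp the hybridization of the Cpr-lox arrays and of Cpr-low pool 1 on a first date and of the other 5 arrays on a second, with 3.22 hours from the first stamp to the last. The stamps lie on either side of 1 midnight, so the dates stand 1.7 hours apart, and whether they mark separate batches is not known. Cpr-lox arrays alone carry the earlier scan date, and scan date and control status therefore cannot be told apart. The last Cpr-lox scan stamp and that of Cpr-low pool 1 lie only 10 minutes apart. Whether the scan dates mark separate batches is not known either. A fit with the date as a block, called date-blocked below, compares Cpr-low with Cpr-lox through Cpr-low pool 1, and links liver-Cpr-null to Cpr-lox through the same array. The ratio of 3′ to 5′ signal of actin, a sign of RNA integrity, ran from 1.62 to 1.99 in liver-Cpr-null and from 1.17 to 1.43 in the other 6 arrays. The same ratio of Gapdh did not follow it, at 2.34 to 2.485 in liver-Cpr-null, 2.36 to 2.72 in Cpr-low and 2.60 to 2.79 in Cpr-lox. As a check of the tissue, the summed signal of 9 hepatocyte markers was 169017 to 179293 in Cpr-lox, 169599 to 173344 in Cpr-low and 151619 to 157793 in liver-Cpr-null. That of 11 Kupffer cell markers was 7296 to 7837, 6841 to 7554 and 9963 to 12798 in the same order. No marker on an array was at 0. In RNA from whole liver, fewer cells of a type and less RNA per cell cannot be told apart.

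The 7 genes did not share 1 pattern. By both of its bright probe sets Tsc22d3 was highest in Cpr-low and lowest in liver-Cpr-null, with no overlap between any of the 3 models. Mt2 fell in Cpr-low relative to Cpr-lox, and Mt1 and Mt2 were higher in liver-Cpr-null than in Cpr-low, while liver-Cpr-null and Cpr-lox overlapped for both. Tat fell in liver-Cpr-null. No call was made for Nr3c1, Fkbp5 or Sgk1. Leaving out Tsc22d3, 1 of 9 tested member probe sets was called in liver-Cpr-null versus Cpr-lox, where 6.7% of all 13576 tested probe sets were called. In Cpr-low versus Cpr-lox 1 of 9 was called against 5.33% of all tested, and in liver-Cpr-null versus Cpr-low 2 of 9 against 8.29%. The arrays did not overlap for 3, 1 and 4 of the 9 in the same order, against 25.8%, 21.3% and 36.8% of all tested probe sets. Counted by gene, with the brightest probe set standing for each of 8879 genes, 6.69%, 5.36% and 8.05% were called.

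**Figure D1:**
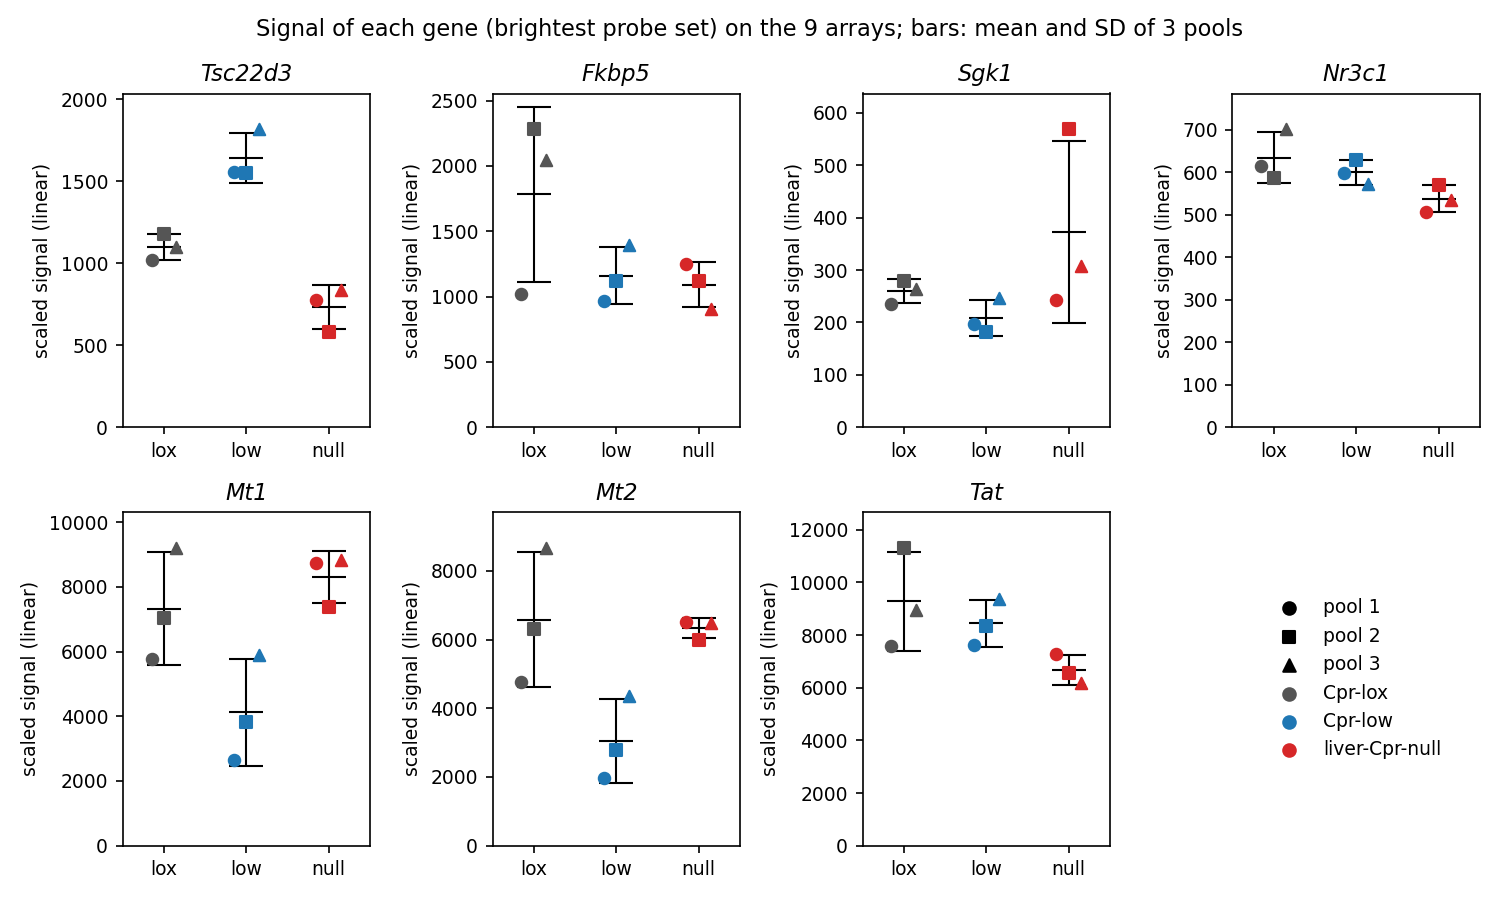
Scaled signal (linear, y axis from 0) of the brightest probe set of each of the 7 genes on each array, by model, with a bar at the mean of 3 pools. Tsc22d3 separates all 3 models, Mt1 and Mt2 are lowest in Cpr-low pools 1 and 2, and Tat is lowest in the 3 liver-Cpr-null pools.

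Nr3c1 encodes the receptor through which the hormone acts. Its brightest probe set read 614, 586 and 701 in the Cpr-lox pools, 597, 629 and 572 in the Cpr-low pools, and 506, 571 and 534 in the liver-Cpr-null pools. The liver-Cpr-null pools were all below the other 6 arrays, while Cpr-low and Cpr-lox overlapped. The separation from Cpr-low was very narrow, with liver-Cpr-null pool 2 at 570.6 and Cpr-low pool 3 at 571.6. The difference of liver-Cpr-null from Cpr-lox was -0.23 ± 0.09 on the log2 scale (limma adjusted p = 0.157), and that of Cpr-low was -0.075 ± 0.09 (limma adjusted p = 0.675). Liver-Cpr-null against Cpr-low gave -0.15 ± 0.09 (limma adjusted p = 0.254). A second Nr3c1 probe set ranged from 342 to 551.5 and overlapped in every comparison, with log2 differences of -0.185, -0.10 and -0.09 in the same order and limma adjusted p from 0.522 to 0.712. The remaining, dim one ranged from 51.6 to 68.5. The order of the receptor's mean signal was thus Cpr-lox, Cpr-low, liver-Cpr-null, with no neighbouring pair past the test.

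Fkbp5 encodes an immunophilin that binds the receptor's chaperone complex, lowers its affinity for the hormone and is itself induced by it. Its bright probe set read 1022, 2280.5 and 2042 in the Cpr-lox pools, 964.5, 1119.7 and 1398 in the Cpr-low pools, and 1249, 1119.6 and 907.5 in the liver-Cpr-null pools. Cpr-lox pool 1 stood at the level of the other models, far below Cpr-lox pools 2 and 3. Cpr-lox overlapped with each model, and the models overlapped with each other. The log2 difference was -0.63 ± 0.25 for liver-Cpr-null versus Cpr-lox (limma adjusted p = 0.18) and -0.55 ± 0.25 for Cpr-low versus Cpr-lox (limma adjusted p = 0.271). Without Cpr-lox pool 1 both were called, at -0.985 at an adjusted p of 0.00516 and at -0.90 at an adjusted p of 0.00835 by limma, and in the date-blocked fit liver-Cpr-null versus Cpr-lox was -0.999 at an adjusted p of 0.267. The models themselves were close, at -0.08 ± 0.25 for liver-Cpr-null versus Cpr-low (limma adjusted p = 0.823). The dimmer Fkbp5 probe set stayed between 456 and 548 on all 9 arrays, and its log2 differences were -0.04, 0.06 and -0.10, with limma adjusted p from 0.382 to 0.849. The ratio of highest to lowest array was 2.51 for the bright probe set and 1.2 for the dim one, and their log2 values correlated at r = 0.03 over the 9 arrays. The transcripts that each detects were not looked up.

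Tsc22d3 encodes GILZ, a leucine zipper protein known as a mediator of the anti-inflammatory action of glucocorticoids. Its brightest probe set read 1020.0, 1181 and 1100.2 in the Cpr-lox pools, 1559.7, 1551 and 1818 in the Cpr-low pools, and 774, 580.5 and 839.5 in the liver-Cpr-null pools. Every Cpr-low pool exceeded every Cpr-lox pool and every liver-Cpr-null pool lay below them, with the nearest arrays at 1551 against 1181 and at 1020.0 against 839.5. The means were 1100.3 ± 80.4 in Cpr-lox, 1643 ± 151.5 in Cpr-low and 731 ± 135 in liver-Cpr-null, log2 differences from the control of 0.57 ± 0.125 and -0.59 ± 0.125 for the models. A second probe set read 510.0, 726 and 623 in the Cpr-lox pools, 824, 962 and 1230.1 in the Cpr-low pools, and 422, 349 and 468 in the liver-Cpr-null pools. It had the same order without overlap, with log2 differences from Cpr-lox of 0.68 ± 0.16 in Cpr-low and -0.56 ± 0.16 in liver-Cpr-null. The difference between the models, liver-Cpr-null minus Cpr-low, was -1.16 ± 0.125 by the first probe set and -1.24 ± 0.16 by the second.

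The last Tsc22d3 probe set, of a kind marked by the array's naming as able to bind other transcripts, moved less. It ranged from 218 to 282, and its means were 244 ± 23.7 in Cpr-lox, 276 ± 5.71 in Cpr-low and 235 ± 14.1 in liver-Cpr-null. Cpr-low stood above all other arrays there, and Cpr-lox and liver-Cpr-null overlapped. Over the 9 arrays its log2 values correlated with the first probe set at r = 0.72, against r = 0.98 for the second. In the date-blocked fit the first probe set gave 0.50 for Cpr-low and -0.70 for liver-Cpr-null, and the second gave 0.42 and -0.96, so both values of the second moved by over 1.5 times. Lymphocytes also express Tsc22d3. The summed signal of 11 lymphocyte markers was 1717 to 1907 in Cpr-lox, 1797 to 2176 in Cpr-low and 1845 to 1887 in liver-Cpr-null, and of 6 tested markers 1, Ptprc, rose in liver-Cpr-null and 0 were called in Cpr-low. Ptprc is not confined to lymphocytes. The other tested markers, Cd3e, Cd3d, Cd8a, Nkg7 and Il7r, were at 0.04, -0.01, -0.02, 0.04 and -0.002 in liver-Cpr-null. The part of lymphocytes in the Tsc22d3 values was not tested.

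By a fixed rule, the 5 genes whose log2 signals ran most like Tsc22d3 over the 9 arrays were named, as a description with no test. They were Uox (r = 0.985), which encodes urate oxidase, Prepl (r = 0.985), Ceacam1 (r = 0.979), a cell adhesion receptor, Klf15 (r = 0.96), a zinc finger transcription factor, and Nipsnap1 (r = 0.957). The signal of Uox was 10979 ± 37.7 in Cpr-lox, 13940.4 ± 693 in Cpr-low and 8721 ± 609 in liver-Cpr-null. Klf15 stood at 1663 ± 60.6, 1938 ± 184 and 1212 ± 138 in the same order. At the other end were Vsig4 (r = -0.974), a Kupffer cell marker, Tgm2 (r = -0.972), a transglutaminase, and Krt18 (r = -0.969), an epithelial keratin. Vsig4 read 708 ± 57.8, 610 ± 26.3 and 930.1 ± 69.4, and Krt18 read 2299 ± 134.5, 1607 ± 139 and 3505 ± 905 in the same order. The points of these correlations share the same 9 libraries and 3 models.

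Sgk1 encodes a serine and threonine kinase that is induced by glucocorticoids and mineralocorticoids and acts on ion transport. Its single probe set read 234, 279.5 and 264 in the Cpr-lox pools, 197, 182 and 246 in the Cpr-low pools, and 242, 569 and 307 in the liver-Cpr-null pools. Liver-Cpr-null pool 2 stood far above all other arrays, and each pair of groups overlapped. The log2 difference was 0.41 ± 0.23 for liver-Cpr-null versus Cpr-lox (limma adjusted p = 0.383), -0.30 ± 0.23 for Cpr-low versus Cpr-lox (limma adjusted p = 0.521) and 0.71 ± 0.23 for liver-Cpr-null versus Cpr-low (limma adjusted p = 0.075). Without liver-Cpr-null pool 2 these were 0.07, -0.30 and 0.37, with limma adjusted p of 0.838, 0.211 and 0.143. Without liver-Cpr-null pool 1 the last difference was called (0.96 at an adjusted p of 0.0219 by limma). The order of the mean signal was the reverse of that of Tsc22d3, and no neighbouring pair passed the test.

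Tat encodes tyrosine aminotransferase, the first enzyme of tyrosine breakdown and a classical glucocorticoid-induced liver gene. Its probe set read 7591, 11319 and 8956 in the Cpr-lox pools, 7619, 8347 and 9378 in the Cpr-low pools, and 7278, 6550.2 and 6166 in the liver-Cpr-null pools. All 3 liver-Cpr-null arrays were below all others, Cpr-lox and Cpr-low overlapped, and Cpr-lox pool 2 was the highest array. The means were 9289 ± 1886 in Cpr-lox, 8448 ± 884 in Cpr-low and 6665 ± 564.5 in liver-Cpr-null. Tat fell in liver-Cpr-null relative to Cpr-lox by 0.46 ± 0.13 on the log2 scale (limma adjusted p = 0.0487). The difference was -0.12 ± 0.13 in Cpr-low (limma adjusted p = 0.644) and -0.34 ± 0.13 between the models (limma adjusted p = 0.12).

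The Tat call was close to the threshold. It was lost without any single one of Cpr-lox pools 2 and 3, Cpr-low pool 2 and the 3 liver-Cpr-null pools, with limma adjusted p from 0.0687 to 0.162, and the difference was -0.31 without Cpr-lox pool 2. It was also lost with deposited, median or quantile scaling (limma adjusted p = 0.109, 0.171 and 0.0632), with no filter or no intensity trend (limma adjusted p = 0.0541 and 0.0573) and in the date-blocked fit (-0.68 at an adjusted p of 0.152 by limma). Within the second date liver-Cpr-null and Cpr-low differed by -0.41 at an adjusted p of 0.0468 by limma. Tat is also 1 of the 9 hepatocyte markers, of which 4 fell in liver-Cpr-null relative to Cpr-lox (Tat, Apoa1, Fabp1 and Hnf4a; 2 of 9 in the date-blocked fit, without Cpr-lox pool 3 and with median scaling) and 0 were called in Cpr-low. Of 11 Kupffer cell markers 9 rose and 0 fell in liver-Cpr-null (1 and 0 in the date-blocked fit, 6 and 0 without Cpr-lox pool 3), and their part in the Tat difference was not tested.

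**Figure D2:**
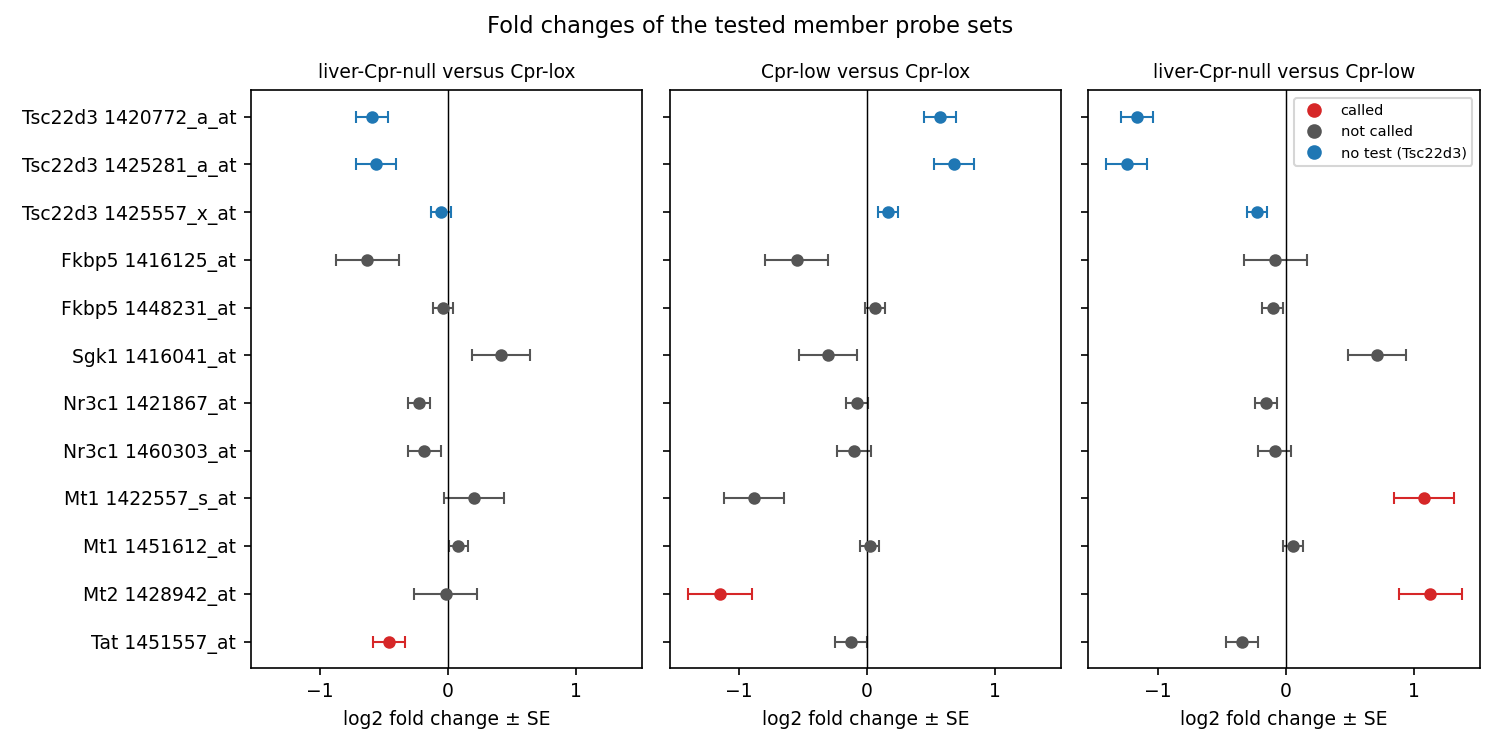
Log2 fold changes ± SE (x axis, log2(signal + 16) scale) of the 12 fitted member probe sets in the 3 comparisons, with called ones in red, others in grey and the untested Tsc22d3 in blue. The called ones are Tat in liver-Cpr-null versus Cpr-lox, Mt2 in Cpr-low versus Cpr-lox, and Mt1 and Mt2 in liver-Cpr-null versus Cpr-low.

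Mt2 encodes a metallothionein and was the 1 tested member called in Cpr-low relative to the control. Its probe set read 4759.8, 6316 and 8673 in the Cpr-lox pools, 1966.5, 2772 and 4371 in the Cpr-low pools, and 6507, 5991 and 6476 in the liver-Cpr-null pools. All Cpr-low pools were below all other arrays, although Cpr-low pool 3 (4371) came close to Cpr-lox pool 1 (4759.8), and the liver-Cpr-null pools lay inside the range of Cpr-lox. The means were 6583 ± 1970.0 in Cpr-lox, 3036 ± 1224 in Cpr-low and 6325 ± 289 in liver-Cpr-null. Mt2 fell in Cpr-low by 1.15 ± 0.25 on the log2 scale, or 2.21-fold (limma adjusted p = 0.0176). It was higher in liver-Cpr-null than in Cpr-low by 1.13 ± 0.25 (limma adjusted p = 0.0151), while liver-Cpr-null and Cpr-lox differed by -0.02 ± 0.25 (limma adjusted p = 0.984).

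The Mt2 calls were lost without some single arrays, although the difference itself changed little in some of these fits. Against Cpr-lox the call was lost without Cpr-lox pool 2 (-1.15 at an adjusted p of 0.0631), without Cpr-lox pool 3 (-0.93 at an adjusted p of 0.0615), without Cpr-low pool 1 (-0.87 at an adjusted p of 0.0655) and without Cpr-low pool 2 (-1.12 at an adjusted p of 0.0627), all by limma, as well as with median scaling (-1.19 at an adjusted p of 0.0635). In the date-blocked fit the fall was -1.69 at an adjusted p of 0.0075 by limma. Between the models the call was lost without Cpr-low pool 1 (0.86 at an adjusted p of 0.0528), without Cpr-low pool 2 (1.10 at an adjusted p of 0.053) and without liver-Cpr-null pool 1 (1.11 at an adjusted p of 0.0532), all by limma, and in the date-blocked fit (0.86 at an adjusted p of 0.053), but within the second date it was 0.86 at an adjusted p of 0.035.

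Mt1, the neighbouring metallothionein gene, is measured by a probe set whose name marks it as shared by several transcripts. It read 5757, 7023 and 9209 in the Cpr-lox pools, 2651, 3816.5 and 5905 in the Cpr-low pools, and 8733, 7378 and 8823 in the liver-Cpr-null pools. Cpr-low pools 1 and 2 were the lowest arrays, Cpr-low pool 3 lay just above Cpr-lox pool 1, and all liver-Cpr-null pools were above all Cpr-low pools. The means were 7329 ± 1746 in Cpr-lox, 4124 ± 1649 in Cpr-low and 8311 ± 809 in liver-Cpr-null. Mt1 was higher in liver-Cpr-null than in Cpr-low by 1.08 ± 0.23, or 2.11-fold (limma adjusted p = 0.0145). Cpr-low versus Cpr-lox gave -0.88 ± 0.23, just short of the threshold (limma adjusted p = 0.0506), and liver-Cpr-null versus Cpr-lox gave 0.20 ± 0.23 (limma adjusted p = 0.725).

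The Mt1 difference between Cpr-low and Cpr-lox was called in several alternatives. It was -1.04 at an adjusted p of 0.041 without Cpr-lox pool 1, -1.17 at an adjusted p of 0.00348 without Cpr-low pool 3 and -1.435 at an adjusted p of 0.00927 in the date-blocked fit, all by limma. With no filter, a stricter filter or 1 probe set per gene its adjusted p was 0.0499, 0.0468 and 0.041, and without Cpr-low pool 1 it was -0.60 at an adjusted p of 0.16. In the date-blocked fit the difference of liver-Cpr-null from Cpr-lox turned to -0.63 at an adjusted p of 0.326 by limma, a value that rests on Cpr-low pool 1. The call between the models was lost without Cpr-low pool 2 (1.06 at an adjusted p of 0.0502) or without liver-Cpr-null pool 1 (1.04 at an adjusted p of 0.0539). A dim second Mt1 probe set ranged from 142 to 166, overlapped in every comparison and was not called (limma adjusted p from 0.596 to 0.905).

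Mt1 and Mt2 ran together from array to array. Their log2 values correlated at r = 0.983 over the 9 arrays, and Mt2 was the second most similar gene to Mt1 after Acot12 (r = 0.985), an acyl-CoA thioesterase. Next came Eef1b2 (r = 0.976), a translation elongation factor subunit, Becn1 (r = 0.974), an autophagy protein, and Myo5b (r = 0.973), a myosin. The spread between pools differed by model: the coefficient of variation of Mt2 was 29.9% in Cpr-lox, 40.3% in Cpr-low and 4.57% in liver-Cpr-null, and that of Mt1 was 23.8% in Cpr-lox and 9.74% in liver-Cpr-null, with its Cpr-low value close to that of Mt2. With 3 pools a model these spreads are a description. The ratio of Mt1 to Mt2 signal, which has meaning only between arrays, was 1.06 to 1.21 in Cpr-lox, 1.348 to 1.38 in Cpr-low and 1.23 to 1.36 in liver-Cpr-null, so it was lower on the Cpr-lox arrays than on all others.

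**Figure D3:**
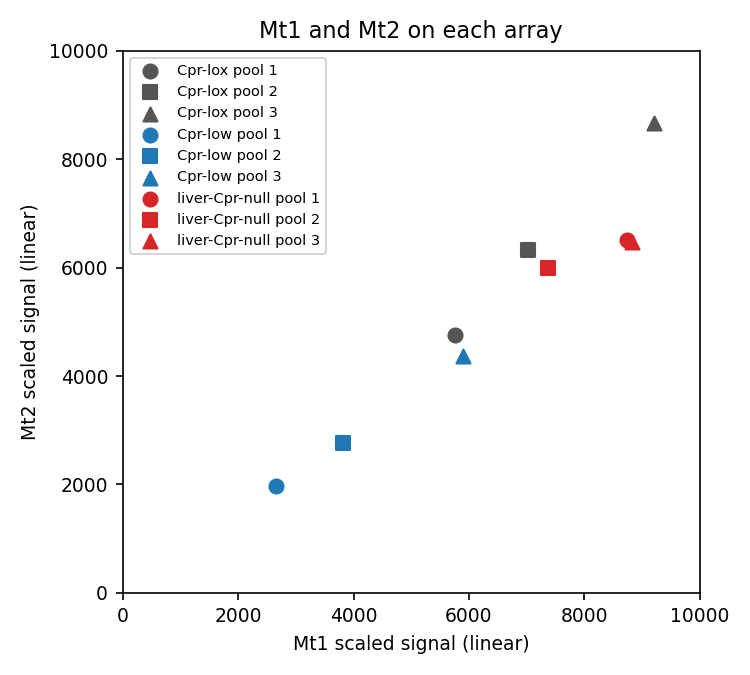
Scaled signal of Mt1 (x axis) against that of Mt2 (y axis), both linear from 0, with 1 point per array. Both rise together from array to array, with the Cpr-lox arrays at a lower ratio of Mt1 to Mt2 than the others, Cpr-low pools 1 and 2 lowest, the liver-Cpr-null pools close together and Cpr-lox pool 3 highest.

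Acute phase genes, many of which the liver switches on in inflammation, were read beside the metallothioneins, which respond to inflammation too. The list also holds receptors and signalling genes, such as Il1r1, Il6ra, Il6st and Stat3. Its counts are therefore not counts of inflammation-induced genes alone. Saa1, a serum amyloid, read 4908, 2255 and 12325 in the Cpr-lox pools, 1345, 913 and 1706 in the Cpr-low pools, and 1991, 1985 and 1829 in the liver-Cpr-null pools. Cpr-lox pool 3 was the highest array for Saa1 as it was for Mt1 and Mt2, and it was also highest for Lcn2, at 1579 against 305 and 188 in the other Cpr-lox pools. Saa1 fell in Cpr-low by 2.00 ± 0.44 (limma adjusted p = 0.0193), a call lost without Cpr-low pool 1 (-2.03 at an adjusted p of 0.0654) or pool 2 (-1.755 at an adjusted p of 0.0843), with median scaling (-2.04 at an adjusted p of 0.0545) and in the date-blocked fit (-1.925 at an adjusted p of 0.0813). Of 23 tested acute phase genes 1 rose and 2 fell in Cpr-low (Saa4 rose and Saa1 and Itih3 fell), and in the date-blocked fit 1 rose and 3 fell. With median scaling, or without Cpr-low pool 1, 0 rose and 1 fell. In liver-Cpr-null relative to Cpr-lox 1 rose (Orm3) and 6 fell, but 0 rose and 2 fell in the date-blocked fit, 1 rose and 2 fell with median scaling, and 3 rose and 4 fell without Cpr-lox pool 3. The largest fall of the 6 was that of Itih4, an inter-alpha-trypsin inhibitor chain, at -0.84 ± 0.08 (limma adjusted p = 8.75e-05). The list's medians were -0.15 in both comparisons, beside 0.04 in Cpr-low and -0.04 in liver-Cpr-null for all genes. Of all genes 5.36% and 6.69% were called in the same order. The part of an acute phase response in the metallothionein values was not tested.

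Among 17 tested genes of metal handling and oxidative defence, 1 rose and 0 fell in Cpr-low and 1 rose and 1 fell in liver-Cpr-null, relative to Cpr-lox. The counts were 2 and 0, and 1 and 0, in the date-blocked fit. With median scaling they were 0 and 1, and 1 and 0, and without Cpr-lox pool 3 they were 0 and 0, and 1 and 0. The medians were 0.05 and -0.06, beside 0.04 and -0.04 for all genes, of which 5.36% and 6.69% were called. Slc30a1, the zinc exporter that is induced by zinc along with the metallothioneins, was at -0.19 ± 0.075 in Cpr-low and -0.19 ± 0.075 in liver-Cpr-null (limma adjusted p = 0.205 and 0.183). Mtf1, the zinc sensor that drives metallothionein genes, was at 0.16 ± 0.09 and -0.19 ± 0.09 (limma adjusted p = 0.402 and 0.314). The riser in liver-Cpr-null was Hmox1, haem oxygenase, which read 299.8, 313 and 257 in the Cpr-lox pools, 338, 294.5 and 268 in the Cpr-low pools, and 761, 478 and 750.1 in the liver-Cpr-null pools. All liver-Cpr-null pools were above all other arrays, the log2 difference from Cpr-lox was 1.125 ± 0.155 (limma adjusted p = 0.00102), and in the date-blocked fit it was 1.38 at an adjusted p of 0.037.

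Between the models 2 of the 17 metal handling genes were higher in liver-Cpr-null and 4 were lower, which became 1 and 2 within the second date and 2 and 2 with median scaling. The median was -0.10, beside -0.08 for all genes, of which 8.05% were called. Hmox1 was higher by 1.08 ± 0.155 (limma adjusted p = 0.00159), and Gclc, a subunit of the enzyme that limits glutathione synthesis, differed by -0.70 ± 0.115 (limma adjusted p = 0.00339). Hamp, which encodes the iron hormone hepcidin, differed by -0.535 ± 0.10 (limma adjusted p = 0.00531) and missed the threshold within the second date (-0.44 at an adjusted p of 0.0568). Mtf1 was called too, at -0.35 ± 0.09 (limma adjusted p = 0.0382). Its call was lost with median, quantile or deposited scaling (limma adjusted p = 0.0851, 0.0642 and 0.0583). It was also lost in the date-blocked fit (-0.27 at an adjusted p of 0.112 by limma) and without liver-Cpr-null pool 1 or 2. Kupffer cells also express Hmox1, and their markers moved with it as given above, a part that was not tested.

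The wider set of glucocorticoid-induced genes was read to place Tsc22d3, Sgk1 and Tat among their kind. Of 30 listed genes 28 were on the array and 25 were tested. In liver-Cpr-null versus Cpr-lox 1 rose and 4 fell (0 and 3 in the date-blocked fit, 1 and 2 with median scaling). The list's median was -0.135 beside -0.04 for all genes, of which 6.69% were called. Klf9, a transcription factor induced by glucocorticoids, read 5699, 6429 and 6498 in the Cpr-lox pools, 4265, 5438 and 4817.5 in the Cpr-low pools, and 4635.5, 4215 and 4443 in the liver-Cpr-null pools. Its Cpr-lox pools were all above the others, and it fell in liver-Cpr-null by 0.48 ± 0.09 (limma adjusted p = 0.00678; -0.75 at an adjusted p of 0.0255 in the date-blocked fit; -0.445 at an adjusted p of 0.0757 with median scaling). Of 3 other Klf9 probe sets 2 were called there, at -0.64 at an adjusted p of 0.00944 and -0.73 at an adjusted p of 0.0212, and 1 was not, at -0.32 at an adjusted p of 0.17. Per1, a clock gene with a glucocorticoid-responsive promoter, fell by 0.36 ± 0.07 (limma adjusted p = 0.00907), a call lost in the date-blocked fit (-0.305 at an adjusted p of 0.196).

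Gadd45g, a stress-induced gene, read 250.5, 697 and 576 in the Cpr-lox pools, 229, 166 and 255 in the Cpr-low pools, and 122, 195 and 182 in the liver-Cpr-null pools. It fell in liver-Cpr-null by 1.43 ± 0.30 (limma adjusted p = 0.0123), but not past the threshold without Cpr-lox pool 2 (-1.15 at an adjusted p of 0.0526), without liver-Cpr-null pool 1 (-1.24 at an adjusted p of 0.0613) or in the date-blocked fit (-1.29 at an adjusted p of 0.258). Errfi1, a feedback inhibitor of EGF receptor signalling, fell by 0.34 ± 0.07 (limma adjusted p = 0.0154) and was no longer called without Cpr-lox pool 2 (-0.30 at an adjusted p of 0.0685), without liver-Cpr-null pool 1 (-0.265 at an adjusted p of 0.0679), with median scaling (-0.30 at an adjusted p of 0.0674) and in the date-blocked fit (-0.37 at an adjusted p of 0.174). A second Errfi1 probe set was at -0.34 at an adjusted p of 0.321. The riser was Pdk4, a kinase that holds back glucose oxidation. It read 113, 184 and 116 in the Cpr-lox pools and 70.7, 89.5 and 107 in the Cpr-low pools. The liver-Cpr-null pools read 236, 218 and 188.5, and they alone were all above 128, the signal near which the filter cut. Pdk4 was called at 0.61 ± 0.16 (limma adjusted p = 0.0463). That call was lost without any single one of Cpr-lox pools 1 and 3, Cpr-low pool 2 and the 3 liver-Cpr-null pools, with limma adjusted p from 0.0596 to 0.178. It was also lost with a pseudocount of 1 and with quantile, deposited and median scaling (limma adjusted p = 0.0517, 0.0631, 0.0676 and 0.0858), and in the date-blocked fit the difference was 0.22 at an adjusted p of 0.706. The gluconeogenic genes Pck1 and G6pc were at -0.32 ± 0.10 and -0.13 ± 0.22 (limma adjusted p = 0.0736 and 0.819).

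**Figure D4:**
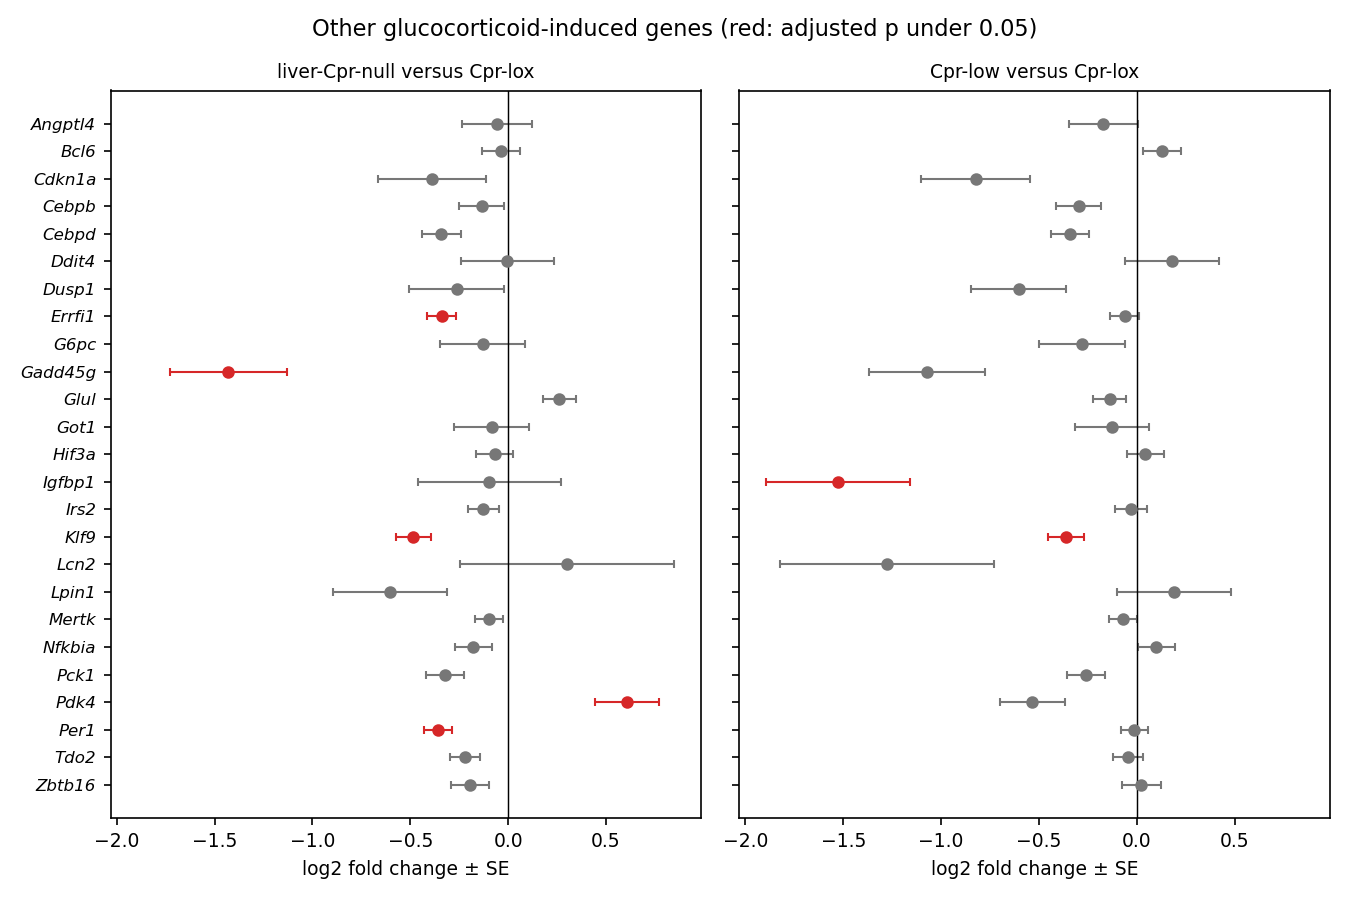
Log2 fold changes ± SE (x axis, log2(signal + 16) scale) of the 25 tested genes of the glucocorticoid-induced list in liver-Cpr-null and Cpr-low relative to Cpr-lox, with called genes in red. In liver-Cpr-null 4 fell and 1 rose, and in Cpr-low 2 fell.

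In Cpr-low, where Tsc22d3 was highest, 0 of the 25 listed genes rose and 2 fell. The list's median was -0.14 beside 0.04 for all genes, of which 5.36% were called. In the date-blocked fit 0 rose and 6 fell, and without Cpr-low pool 1, on which that fit rests, 0 rose and 0 fell, with a median of -0.075. With median scaling 0 rose and 0 fell as well, and without Cpr-lox pool 3 0 rose and 1 fell. The list is a selection, and its counts do not cover every gene that glucocorticoids induce. Klf15, whose means above had the order of those of Tsc22d3, was not on the list. Igfbp1, a secreted binder of insulin-like growth factors, read 3887, 8291 and 4031 in the Cpr-lox pools, 845, 2436 and 2586 in the Cpr-low pools, and 4923, 4866 and 4448 in the liver-Cpr-null pools. Every Cpr-low pool was below every other array. It fell by 1.53 ± 0.37 (limma adjusted p = 0.0316), a call lost without Cpr-lox pool 2 (-1.17 at an adjusted p of 0.137) or Cpr-low pool 1 (-1.01 at an adjusted p of 0.0597) and with median or deposited scaling (limma adjusted p = 0.0787 and 0.0593), while in the date-blocked fit it was -2.56 at an adjusted p of 0.00228. Klf9 fell in Cpr-low by 0.36 ± 0.09 (limma adjusted p = 0.0379), and this call was lost without any single one of Cpr-lox pools 2 and 3, Cpr-low pools 1 and 3 and liver-Cpr-null pools 1 and 3, with limma adjusted p from 0.0527 to 0.147, and with median or deposited scaling (limma adjusted p = 0.106 and 0.0683). None of the 3 other Klf9 probe sets was called in Cpr-low by limma, at -0.07 at an adjusted p of 0.774, -0.38 at an adjusted p of 0.126 and -0.38 at an adjusted p of 0.263. Between the models 3 of the 25 were higher and 2 lower in liver-Cpr-null (2 and 1 with median scaling), with Pdk4 at 1.14 ± 0.16 (limma adjusted p = 0.0016) and Per1 at -0.35 ± 0.07 (limma adjusted p = 0.0108; -0.33 at an adjusted p of 0.0516 without liver-Cpr-null pool 1). Every Cpr-low signal of Pdk4 was below 128, near which the filter cut. Pdk4 thus passed the filter through its liver-Cpr-null signals, and its difference between the models is a description. Of all genes 8.05% were called between the models. The comparisons with Cpr-lox share its 3 arrays.

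Chaperones and cofactors of the receptor, and genes that handle its ligand in any direction (supply, binding or removal), formed another list. Of 12 tested members of this list 1 rose and 3 fell in liver-Cpr-null, and 2 rose and 2 fell in Cpr-low, with medians of -0.12 and 0.07. For all genes the medians were -0.04 and 0.04, with 6.69% and 5.36% called. Blocking on the date left 0 rising and 2 falling in each, and with median scaling 0 rose and 1 fell in liver-Cpr-null and 0 rose and 3 fell in Cpr-low. Without Cpr-lox pool 3 the counts in liver-Cpr-null were 2 and 2. Hsp90aa1, the inducible cytosolic HSP90 that folds the receptor, read 1735, 2804 and 2337 in the Cpr-lox pools, 753, 1251 and 1329 in the Cpr-low pools, and 1296, 1449 and 1339.9 in the liver-Cpr-null pools. All Cpr-low pools were below all Cpr-lox pools, and it fell by 1.05 ± 0.20 (limma adjusted p = 0.00856; -1.56 at an adjusted p of 0.00255 in the date-blocked fit). Both other Hsp90aa1 probe sets were called there too, at -1.21 at an adjusted p of 0.0193 and -1.10 at an adjusted p of 3.91e-04. Hspa8, the constitutive HSP70, fell in Cpr-low by 0.83 ± 0.12 (limma adjusted p = 0.0015), and of its 3 other probe sets 2 were called, at -0.885 at an adjusted p of 0.00468 and -0.45 at an adjusted p of 0.0181, and 1 was not, at -0.91 at an adjusted p of 0.0689. In liver-Cpr-null the brightest Hsp90aa1 probe set was at -0.72 ± 0.20 (limma adjusted p = 0.0527), while of the other 2 the dimmer was called, at -0.85 at an adjusted p of 0.00181, and the brighter was not, at -0.70 at an adjusted p of 0.164. Stip1, the cochaperone that links both, fell by 0.36 ± 0.07 (limma adjusted p = 0.00983), a call lost without liver-Cpr-null pool 1 (-0.35 at an adjusted p of 0.0501) and in the date-blocked fit (-0.32 at an adjusted p of 0.187).

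On the ligand side, Hsd11b1, the enzyme that regenerates active glucocorticoid inside the liver, read 7877, 6787 and 6837 in the Cpr-lox pools, 8156, 8754 and 8894 in the Cpr-low pools, and 5407, 4639 and 5703 in the liver-Cpr-null pools. Its order was that of Tsc22d3, with Cpr-low highest and liver-Cpr-null lowest and no overlap between the models. It fell in liver-Cpr-null relative to Cpr-lox by 0.45 ± 0.09 (limma adjusted p = 0.008), a call lost with median scaling (-0.41 at an adjusted p of 0.0616) and in the date-blocked fit (-0.56 at an adjusted p of 0.094). Cpr-low versus Cpr-lox gave 0.265 ± 0.09 (limma adjusted p = 0.112), and liver-Cpr-null minus Cpr-low gave -0.715 ± 0.09 (limma adjusted p = 6.43e-04), the 1 call of 12 between the models. In that comparison 8.05% of all genes were called. Serpina6, the corticosteroid-binding globulin of plasma, rose in Cpr-low by 1.04 ± 0.25 (limma adjusted p = 0.0314). That call was lost without any single one of Cpr-lox pools 1 and 2 and Cpr-low pools 2 and 3, with limma adjusted p from 0.0694 to 0.108, with deposited or median scaling (limma adjusted p = 0.08 and 0.115) and in the date-blocked fit (0.74 at an adjusted p of 0.169). Akr1d1, the list's other riser, rose by 0.90 ± 0.19 in Cpr-low and 0.87 ± 0.19 in liver-Cpr-null (limma adjusted p = 0.0154 and 0.016). Both calls were lost with median scaling (limma adjusted p = 0.0823 and 0.0586) and without Cpr-lox pool 1 or 2. The date-blocked fit also lost them (0.77 and 0.68, limma adjusted p = 0.0895 and 0.334). A second Akr1d1 probe set was at 0.89 and 0.97 (limma adjusted p = 0.0999 and 0.0629).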

How the data were processed

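The members and the gene lists were chosen with earlier results of these data known. Per the labels, 5 micrograms of total RNA from each of 9 pools were amplified and labelled. The authors deposited linear signal intensities per probe set; the sources used here do not give how probes were summarised, background corrected or arrays scaled. The deposited run settings gave hybridization stamps and 3′ to 5′ ratios could be read from control probe sets. Per the file headers the arrays were MOE430A. Precision is limited by the number of arrays.

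The table held 22690 probe sets including 64 controls. GEO's platform annotation paired 20380 with 1 gene symbol, 691 with several, which stay unnamed, and listed none for 1555. A check by gene number against RefSeq (GRCm38.p6) changed 0 symbols. Signals, whose trimmed means ran from 349 to 384, were scaled to a common 2% trimmed mean, and 16 was added before log2. Filtering on mean log2 signal left the upper 60%, or 13576 probe sets, the dimmest near a signal of 128. They were fitted in limma 3.58.1 (R 4.3.3; lmFit, then eBayes with a trend on intensity; two-sided p adjusted by Benjamini-Hochberg over all 13576, threshold 0.05). The fit was also run on simulated data with errors independent between arrays, which leaves out any pairing of pools by number. The outcome of that run is not given here. Figures used matplotlib 3.10.9 (Python 3.11.15).

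Named were all member probe sets; of each list, called members, up to 6 a comparison in order of adjusted p; the 5 genes most like Tsc22d3 and Mt1 by Pearson correlation and the 3 least like Tsc22d3; and markers that moved with a member. The text names part of these. Slc30a1, Pck1, G6pc and Lcn2, and Mtf1 and Hsp90aa1 in comparisons where they were not called, are named outside that rule for their known roles, after their values were seen. List genes stand by their brightest probe set. Alternatives changed the pseudocount (1, 64), scaling, filter (none, upper 40%), trend, probe set choice and blocks, fitted within a hybridization date, or left out 1 pool.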

Additional observations from a re-analysis of the deposited data

How the results depend on the processing

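Over 5 sets of choices (pseudocount, scaling, filter, trend, probe set choice), the blocks, the fits within a date and the fits with 1 pool left out, 492 of 546 recomputed values of the tested members kept their direction and side of the threshold, and 1 of 180 untested Tsc22d3 values changed sign. Of the other tested member values 23 lost a call, 13 gained a call and 18 changed sign. Most of the 546 were uncalled from the start, as the main fit called only 1, 1 and 2 of 9 tested member probe sets. The number of probe sets called in liver-Cpr-null versus Cpr-lox (910) was 217 with the hybridization date as a block and 520 to 1098 with single pools left out. In Cpr-low versus Cpr-lox (723) it was 1561 with that block and 392 to 733 with pools left out. In liver-Cpr-null versus Cpr-low (1125) it was 748 with 1 probe set per gene, 672 within the second date and 590 to 1288 with pools left out. The share of calls that were higher was 53.7%, 40.2% and 58.7% in these comparisons, and 68.2%, 30% and 81.8% with median scaling, and 76.3% in the last with deposited scaling. The pool number as a replicate block gave 1211, 1012 and 1640 calls, called Mt1 in Cpr-low versus Cpr-lox (-0.88, limma adjusted p = 0.00541) and Sgk1 between the models (0.71, limma adjusted p = 0.037). Deviations of same-numbered pools correlated at -0.213 to 0.493, over 0.1 in 6 of 9 pairs, with a mean of 0.171, and 7 of 9 arrays correlated best with an array of their own number. The mean of other pairs was -0.087. Deviations were taken from each model's own mean and so sum to 0, which ties this value to the mean of same-numbered pairs. The correlations of same-numbered pools are a hint from the data that the numbers pair the pools. The labels do not say so, and not every pair passed 0.1, so the fit without the block stands as the main one. Values near 0 changed sign: with single pools left out, the dimmest Tsc22d3 probe set in liver-Cpr-null versus Cpr-lox ran from -0.109 to 0.018 (positive without Cpr-lox pool 2); bright Fkbp5 between the models was 0.004 with median scaling and -0.206 to 0.058 with single pools left out (positive without pool 3 of Cpr-low or of liver-Cpr-null); dim Fkbp5 in liver-Cpr-null versus Cpr-lox was 0.105 with the date block; the second Nr3c1 probe set ran from -0.201 to 0.047 in Cpr-low versus Cpr-lox (positive without Cpr-lox pool 3) and from -0.184 to 0.008 between the models (positive without liver-Cpr-null pool 2). Mt1 in liver-Cpr-null versus Cpr-lox turned to -0.634 with the date block. The dim Mt1 probe set in Cpr-low versus Cpr-lox became -0.023, -0.026 and -0.013 with median, quantile and deposited scaling, and -0.033 to 0.084 with single pools left out (negative without Cpr-lox pool 1 or 2 or Cpr-low pool 1). Mt2 in liver-Cpr-null versus Cpr-lox became 0.023 with median and 0.010 with deposited scaling and ran from -0.227 to 0.204 with single pools left out (positive when Cpr-lox pool 3 or liver-Cpr-null pool 2 was missing), and Tat in Cpr-low versus Cpr-lox ran from -0.258 to 0.03 (positive without Cpr-lox pool 2). Of the named calls of list genes, 3 of 24, 3 of 14 and 9 of 26 held in every alternative, in the order above, and none reversed. The cause of these changes was not tested. Signals near background, such as the dim Nr3c1 probe set, allow no comparison.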

Other observations

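Tyrosine and phenylalanine breakdown was read from 9 tested genes, of which Hpd, Hgd, Gstz1 and Fah follow Tat, while Qdpr, Pcbd1 and Gch1 serve the tetrahydrobiopterin cofactor and Got1 and Tdo2 are other amino acid enzymes. In Cpr-low 3 rose and 0 fell relative to Cpr-lox: Fah, the last enzyme of tyrosine breakdown, at 0.29 ± 0.07 (limma adjusted p = 0.0235), Qdpr, at 0.52 ± 0.11 (limma adjusted p = 0.0161), and Pcbd1. With median scaling, and within the first date, 0 rose and 0 fell. Pcbd1, a recycling enzyme of that cofactor, read 5399.5, 5528 and 5604 in the Cpr-lox pools, 6868, 6971 and 6799.8 in the Cpr-low pools, and 6699, 6716 and 6626 in the liver-Cpr-null pools. Every array of both models was above every Cpr-lox array, with log2 differences of 0.32 ± 0.055 in Cpr-low (limma adjusted p = 0.00469) and 0.28 ± 0.055 in liver-Cpr-null (limma adjusted p = 0.00925). The Cpr-low value was 0.27 at an adjusted p of 0.0602 with median scaling and 0.32 at an adjusted p of 0.0917 within the first date, and the liver-Cpr-null value was 0.27 at an adjusted p of 0.156 in the date-blocked fit, all by limma. Hpd, the enzyme that follows Tat in the pathway, was at 0.04 ± 0.05 and 0.05 ± 0.05 (limma adjusted p = 0.745 and 0.694). Gch1, which starts the synthesis of the cofactor, was higher in liver-Cpr-null than in Cpr-low by 0.59 ± 0.09 (limma adjusted p = 0.00266). A second, dimmer Gch1 probe set was not called there, at 0.35 ± 0.22 (limma adjusted p = 0.294). The list's medians were 0.04 and 0.05 in Cpr-low and liver-Cpr-null, and in the date-blocked fit the counts were 2 rising and 1 falling in Cpr-low and 0 and 0 in liver-Cpr-null. Over all genes the medians were 0.04 and -0.04, and 5.36% and 6.69% were called in the main fit.

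Of 11 tested clock genes 0 rose and 4 fell in liver-Cpr-null relative to Cpr-lox, with a median of -0.30, and 0 were called in Cpr-low, with a median of -0.07. Over all genes the medians were -0.04 and 0.04, with 6.69% and 5.36% called. Tef, a clock-controlled transcription factor, read 1673, 1453 and 1654 in the Cpr-lox pools, 1596, 1399 and 1546 in the Cpr-low pools, and 1165, 958 and 1134 in the liver-Cpr-null pools. All liver-Cpr-null pools were below all others, at a log2 difference from Cpr-lox of -0.55 ± 0.10 (limma adjusted p = 0.00453). A dimmer Tef probe set was at 0.03 at an adjusted p of 0.921 by limma. In the date-blocked fit 0 of the 11 were called in this comparison, and Tef was at -0.43 at an adjusted p of 0.204 by limma. With median scaling, or without Cpr-lox pool 3, 2 fell. Between the models, where 8.05% of all genes were called, 3 were lower in liver-Cpr-null and 1 was within the second date. The labels give no hour at which livers were taken. Among 11 tested relatives and targets of Sgk1, 0 rose and 3 fell in liver-Cpr-null and 0 and 1 in Cpr-low, relative to Cpr-lox. The list's medians were -0.04 and 0.11, beside the same all-gene values. The date-blocked counts were 0 and 0 in liver-Cpr-null and 1 and 2 in Cpr-low, and with median scaling they were 1 and 1, and 0 and 0. Sgk2, a related kinase, read 1453.5, 1229 and 1379.8 in the Cpr-lox pools, 1173, 1109.7 and 1180.2 in the Cpr-low pools, and 897, 903 and 988 in the liver-Cpr-null pools, and its log2 difference in liver-Cpr-null was -0.53 ± 0.08 (limma adjusted p = 0.00216; -0.50 at an adjusted p of 0.11 in the date-blocked fit).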
